A study of Arabidopsis thaliana with 17 samples.

Results

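Heat of short duration does not only switch on chaperone genes in Arabidopsis, it also lowers many transcripts of growing seedlings. The transcripts described here are those with the deepest falls. They were selected on the arrays of wild-type seedlings (Col-0): on the log2 scale the mean of the heated arrays had to lie at least 2 units (4-fold) below the mean of the unheated ones, and the highest heated array below the lowest unheated one. Of 22746 probe sets 63 fell that far, 61 of them without overlap. Organelle-encoded genes and a set of named cell wall, beta-glucosidase and subtilase genes were left out by name (rps18, XTH19, BGLU33 and SBT4.12), which gave 57 members. The array annotation lists 1 gene for 18 members and several genes for 4, while 35 are not listed and are given by probe set identifier. Exclusion by name could not reach members that are not listed, and it was not applied to the 4 with several listed genes.

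The samples were 7-d-old whole seedlings grown at 22 °C under 16 h of light, profiled on 17 Affymetrix arrays. Naive wild-type seedlings (3 arrays) were never heated, primed ones (2 arrays) were heated to 37 °C for 1 h on day 4 and given 3 d to recover, triggered ones (3 arrays) were heated for 1 h at 37 °C just before collection, and primed and triggered ones (3 arrays) received both. Of the HSFA2 knockout mutant hsfa2 (SALK_008978) there were 2 naive, 2 triggered and 2 primed and triggered arrays. Primed hsfa2 seedlings without the second heat treatment were not analysed here. A single mutant line stands for the loss of HSFA2, which has no listed probe set, so the loss of its transcript was not checked. Heat was applied around mid-morning, and all arrays are of whole seedlings, so fewer cells of a type and less RNA per cell cannot be told apart.

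HSFA2 encodes a heat-inducible transcription factor that keeps chaperone genes active after heat and is needed for heat memory. A transcript can fall within 1 h through less synthesis, faster decay or both, which arrays of total RNA cannot tell apart. Growth, cell wall and signalling genes are often among the transcripts that stress lowers. The roles given below for genes with no name other than their locus are background from Arabidopsis gene annotation and were not part of the tables used.

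The median intensity was 51.8 to 58.9 in triggered arrays, primed or not, and 60.1 to 64.2 in all other arrays, so part of each fall depends on the scaling. In wild-type naive replicate 3 and both primed arrays the bacterial hybridization control bioB was low (4.40 to 4.43 log2 units, against 6.98 to 8.14 in the other 14). All primed arrays therefore share this feature with 1 naive array, whereas all hsfa2 arrays lack it. Of 7 root and root hair markers 3 were measured (PYK10, EXPA7 and EXPA18). Their summed intensity was 5592 to 6203 in naive, 7040 to 7842 in primed, 1374 to 1853 in triggered and 1802 to 3335 in primed and triggered wild-type arrays, and 5792 to 6539, 1975 to 2883 and 2575 to 2617 in naive, triggered, and primed and triggered hsfa2 arrays. PRK and RCA, 2 of 6 leaf and photosynthesis markers, summed to 21685 to 22399 in naive and 16172 to 17273 in triggered wild-type arrays, with PRK at −0.74 and RCA at −0.25 on the log2 scale. The only guard cell marker measured of 3, FAMA, read 26.4 to 42.7 in naive, 21.3 to 57.3 in primed, 17.9 to 27.5 in triggered and 19.7 to 25.7 in primed and triggered wild-type arrays, and none of the 3 seed markers was listed. At an adjusted p under 0.05 by limma, PYK10 (−1.84), EXPA7 (−1.30), EXPA18 (−1.20) and PRK were lower in triggered than in naive wild-type seedlings. RCA and FAMA (−0.69) did not pass. The measured root, leaf and guard cell markers thus all had lower means after triggering, as the members did, but by differing amounts. Their part in the results was not tested.

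**Figure D1:**
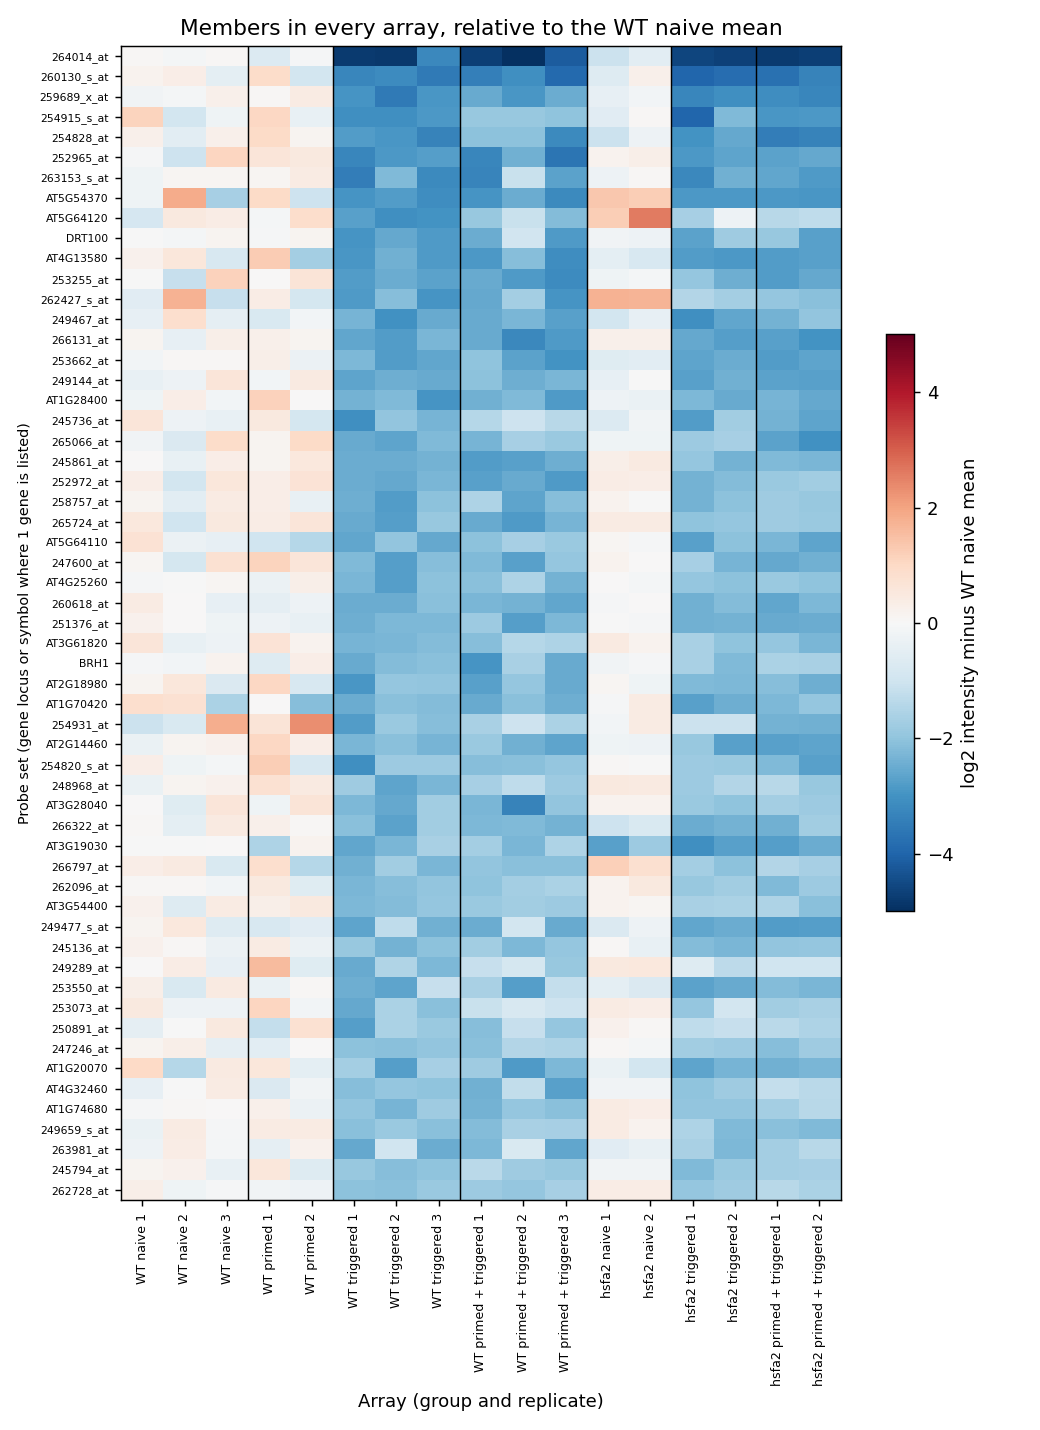
Level of each of the 57 members in each of the 17 arrays as the log2 intensity minus the wild-type naive mean of that member (colour), with members in order of their wild-type fall and vertical lines between groups. The 7 columns of naive and primed seedlings are mostly pale and the other columns blue, and the coloured fields among the 7 show where single arrays differed.

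In the wild-type arrays that chose them, the members had a median change of −2.31 log2 units, with a range from −4.28 to −2.01, or from 4.02-fold to 19.4-fold lower. Levels went from 5.91 to 10.9 log2 units in naive seedlings to between 3.40 and 8.40 in triggered ones. For 3 members the triggered mean was in the lowest 25% of all tested probe sets, where background limits how far a fall can be seen. By limma, 9.50% of all probe sets were called lower in this comparison, and all 57 members were among them, which follows from how they were chosen. Just inside the threshold lay 263981_at, 245794_at and 262728_at (each at −2.01), and just outside it 253372_at, AT1G62790 and AT1G18980, whose falls of slightly under 2 round to the threshold. The overlap condition removed 2 probe sets, both of plastid genes (psaJ and rpl33).

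The deepest fall was that of 264014_at, which is not listed. It lay at 10.14, 9.96 and 10.11 log2 units in naive seedlings and at 5.30, 5.24 and 6.83 in triggered ones. The third triggered array was thus well above the other two, yet far below every naive array. Next came 260130_s_at (−3.31), listed with the beta-glucosidase genes BGLU22 and BGLU21, which the exclusion did not name, and 259689_x_at (−3.13). Probe sets with such suffixes (8 of the 57) can pick up more than 1 related transcript.

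By background annotation, some of the listed members encode enzymes and proteins of the cell wall. Whether such genes are more frequent among the members than among all probe sets was not tested. The 60 probe sets with a cell wall name in the keyword search described below held 0 members. Class III peroxidases, which use hydrogen peroxide at the wall, account for AT5G64120, AT5G64110 and AT2G18980. AT5G64120 read 7.26, 8.62 and 8.48 in naive and 5.41, 5.05 and 5.13 in triggered arrays, a change of −2.93 (SE 0.47) or 7.60-fold. Its neighbour AT5G64110, with 0 protein-coding genes between them, read 7.54, 6.54 and 6.41 in naive and 4.23, 4.85 and 4.27 in triggered arrays (−2.38, SE 0.28). AT2G18980 was less even among naive arrays, at 8.23, 8.64 and 7.38, and fell to 5.18, 6.17 and 6.12. All 3 genes were thus low in every triggered array, and AT2G18980 had the narrowest gap to its naive arrays.

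The pectin methylesterase inhibitor family gene AT4G25260, whose family blocks enzymes that modify wall pectin, was one of the most even members before heat, though not after it. It lay at 8.04, 8.08 and 8.22 in naive and 5.82, 5.35 and 6.07 in triggered arrays. AT1G74680, of the exostosin family of glycosyltransferases, was also even before heat (7.19, 7.30 and 7.29 against 5.27, 4.95 and 5.46). AT4G32460, a cell wall protein of the DUF642 family, started from a higher level and went from 9.11, 9.51 and 9.92 to 7.38, 7.56 and 7.49. In AT4G13580, a dirigent-like gene, naive arrays spread over more than a unit (8.01, 8.37 and 7.01) and triggered ones did not (4.87, 5.38 and 4.97).

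Proteases of the aspartyl family were represented by AT3G61820 and AT3G54400. AT3G61820 went from 8.86, 7.87 and 7.98 to 5.90, 5.94 and 6.06, and AT3G54400 from 10.30, 9.46 and 10.51 to 7.85, 7.93 and 8.15. In both, the triggered arrays were closer together than the naive ones.

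Among signalling and leucine-rich repeat proteins, BRH1 encodes a RING-H2 protein, a type that often acts as a ubiquitin ligase, and is known as responsive to brassinosteroid, a growth hormone. BRH1 read 8.61, 8.51 and 8.82 in naive and 6.13, 6.47 and 6.54 in triggered arrays, a change of −2.27 (SE 0.31) or 4.81-fold. DRT100, named for DNA damage repair and tolerance and encoding a leucine-rich repeat protein, read 9.58, 9.48 and 9.71 against 6.63, 7.02 and 6.76, a fall of 6.91-fold. The leucine-rich repeat receptor kinase gene AT3G28040 fell from 9.26, 8.63 and 9.87 to 7.02, 6.69 and 7.51. DRT100 and BRH1 were nearly equal among naive arrays, whereas AT3G28040 was not.

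For the remaining listed members no role is given. AT5G54370 was the most variable of all before heat, at 6.57, 8.62 and 5.14 (SD 1.75, n = 3), and then uniformly low at 3.81, 3.99 and 3.67. It is 1 of the 3 members with a triggered mean in the lowest 25% of tested probe sets, so its evenness after heat is that of readings near background. AT1G70420 was also uneven before heat and even after it (7.27, 7.19 and 4.88 against 3.96, 4.35 and 4.26), with the low naive array in replicate 3. AT1G20070 was uneven in both groups (9.08, 6.65 and 8.55 against 6.38, 5.34 and 6.44), and its highest triggered array lay only just below naive replicate 2. AT1G28400 read 8.79, 9.35 and 8.87 in naive and 6.64, 6.81 and 6.04 in triggered arrays. AT2G14460 (6.62 ± 0.30 to 4.38 ± 0.12) and AT3G19030 (10.00 ± 0.03 to 7.83 ± 0.51, SD, n = 3 each) were even before heat too. Over all members the naive SD ranged from 0.03 to 1.75 with a median of 0.46, and 25 members were above 0.5. In triggered arrays it ranged from 0.05 to 0.90 with a median of 0.27.

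Gene groups searched by keyword in symbols and synonyms held few members, since most loci carry no such name. Of 10 probe sets with a peroxidase name, AT5G64120 was the only one called lower in the wild type and in hsfa2, and the group medians were −0.23 and −0.29, beside 0.00 and 0.02 over all probe sets. The 10 include the ascorbate peroxidases SAPX and TAPX and the peroxiredoxin PRXIIF. They leave out AT5G64110 and AT2G18980, which carry no such name there but were called lower in both genotypes. Among 10 RING, U-box and F-box names 3 were lower in the wild type and 1 in hsfa2 (medians −0.48 and −0.36), BRH1 in both. BRH1 was also the only gene called of 4 with an ethylene, gibberellin, cytokinin or brassinosteroid name. The remaining 12 groups held none of the members. Their counts stand beside 9.50% of all probe sets lower and 5.90% higher in the wild type, and 4.88% and 3.50% in hsfa2, and whether a group departs from these was not tested. Of 60 cell wall names 17 were lower and 1 higher in the wild type, and 11 lower and 0 higher in hsfa2 (medians −0.33 and −0.27). Of 29 cytochrome P450 names 6 were lower and 2 higher in the wild type and 5 and 1 in hsfa2, and of 20 transporters and aquaporins 5 and 4 were lower and none higher. Of 53 glycosyltransferases 4 were lower and 4 higher in the wild type, and 0 and 3 in hsfa2. Of 18 transcription factors and zinc fingers 2 were lower and 1 higher in the wild type and 1 and 1 in hsfa2, and of 12 calcium names 1 and 2, and 0 and 2. The kinase (6), defence (8), and cyclin and histone (7) groups had 1 lower gene each in the wild type, with 2, 1 and 0 in hsfa2, and defence 1 higher gene in the wild type. The auxin (9), photosystem and chlorophyll (8) and lipid (1) groups had 0 calls by limma in both genotypes.

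**Figure D2:**
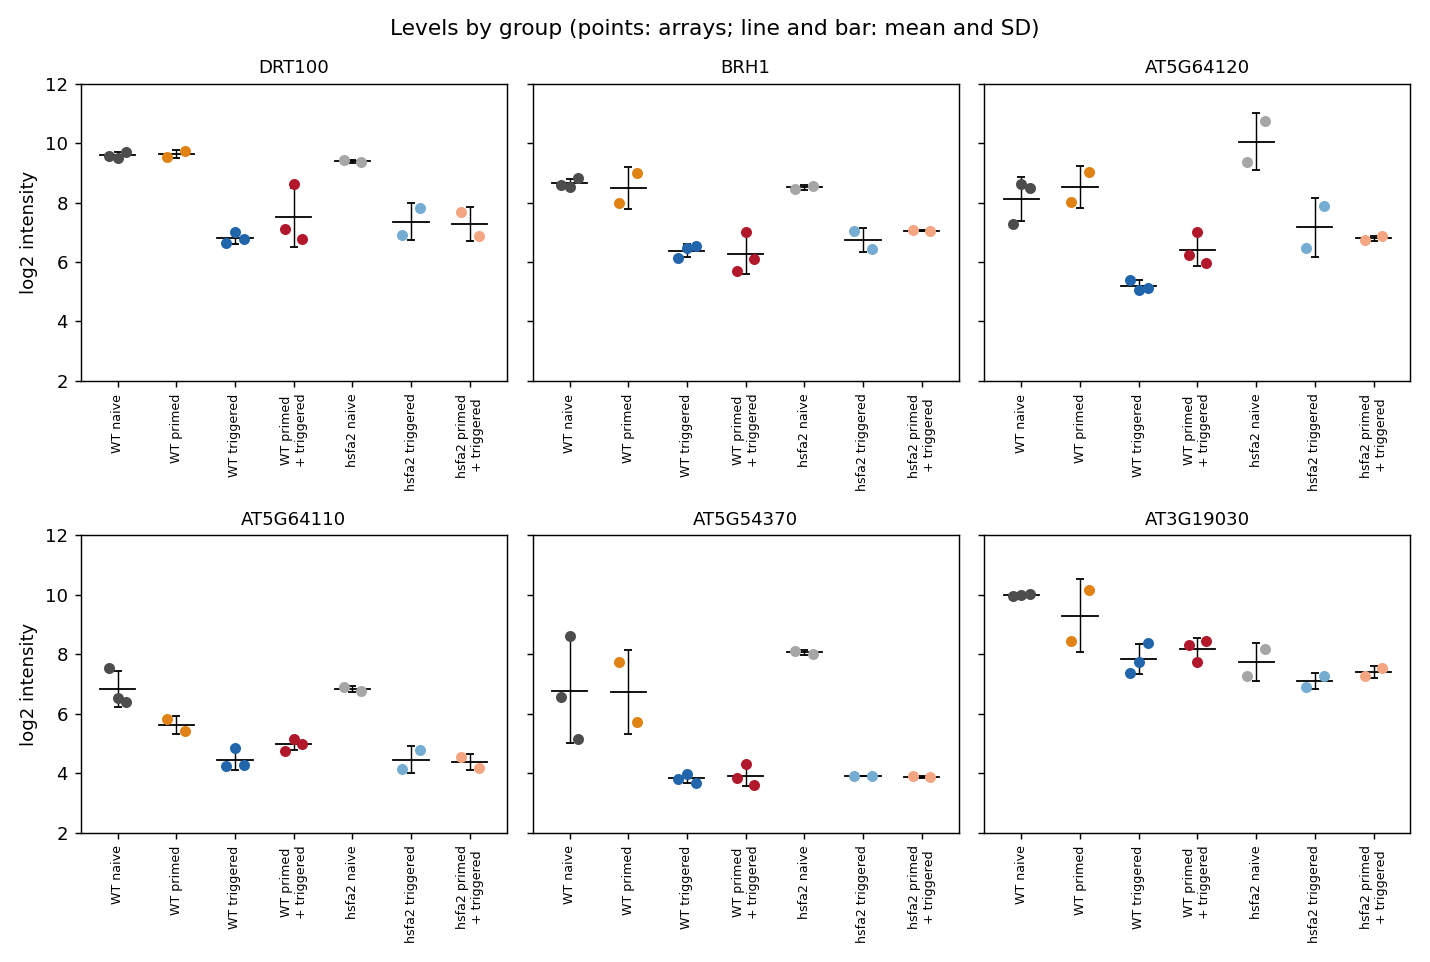
Log2 intensity (vertical axis) of 6 members in the 7 groups (horizontal axis), with 1 point per array and the mean and SD as a line and bar. DRT100 and BRH1 are low in all groups heated just before collection, AT5G64110 is also low in primed seedlings, and AT3G19030 is low in every hsfa2 array.

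Whether heat lowers the same transcripts in seedlings that did not serve to choose them was read first from hsfa2. After 1 h of heat all 57 members had a lower mean in triggered than in naive hsfa2 seedlings, with a median difference of −2.12 log2 units (range −4.16 to −0.63), beside 0.02 over all probe sets. By limma 50 of 57 were lower and 0 higher at an adjusted p under 0.05, against 4.88% of all probe sets lower and 3.50% higher. For 56 members both triggered arrays lay below both naive arrays, which was so for 32.8% of all probe sets. A fall of 4-fold or more without overlap, the condition that chose the members in the wild type, was met by 38 of them and by 0.321% of all probe sets.

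AT5G54370 had the largest fall in hsfa2, from 8.12 and 8.01 to 3.91 and 3.91 (−4.16, SE 0.82, limma adjusted p = 0.00592). The heated level was about as low as in the wild type, where it was near background. The unlisted 264014_at went from 9.27 ± 0.38 to 5.45 ± 0.06 (SD, n = 2 each, a change of −3.82 with SE 0.45). AT5G64120 fell from 9.36 and 10.73 to 6.46 and 7.87 (−2.88, SE 0.58, limma adjusted p = 0.00685), a change close to that in the wild type from a higher starting level. Its neighbour AT5G64110 changed by −2.38 (SE 0.35), AT1G74680 by −2.35 (SE 0.20), AT2G18980 by −2.17 (SE 0.53) and DRT100 by −2.03 (SE 0.47). AT4G25260 changed by −1.96 (SE 0.27), BRH1 by −1.77 (SE 0.38), AT4G32460 by −1.73 (SE 0.38) and AT3G54400 by −1.72 (SE 0.27). All of the members in this paragraph passed the test.

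The 7 members that did not pass in hsfa2 were AT3G19030 (−0.63, SE 0.48, limma adjusted p = 0.508), AT4G13580 (−2.19, SE 0.69), AT1G20070 (−1.86, SE 0.65), 254931_at (−1.20), 249289_at (−1.47), 250891_at (−1.36) and 263981_at (−1.47). AT3G19030 stood apart from the other 6 by the size of its change, at 7.28 and 8.18 in naive and 6.91 and 7.28 in triggered hsfa2 arrays. Its upper triggered and lower naive arrays were level, so the groups did not separate. With 2 arrays a group, the count rests on each array: without naive replicate 1 or 2, or triggered replicate 1, it was 33, 29 and 31. The lone array left is then assumed to vary as arrays of the other groups do.

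After both treatments the hsfa2 seedlings were again low. Against the same naive hsfa2 arrays, 47 of 57 members were lower and 0 higher by limma (4.82% of all probe sets lower and 2.98% higher), with a median of −2.23. In 56 members both arrays lay below both naive arrays (34.9% of all probe sets), and 38 met the 4-fold condition (0.400%). Without naive replicate 1 or 2 of hsfa2 the count was 29 and 31. Between primed and triggered and triggered hsfa2 seedlings 0 members were called, as was 0.00% of all probe sets by limma (1331 of all probe sets and 2 members had an unadjusted p under 0.05). The median difference of the members was −0.04, and 49 of 57 differed by less than 0.5 log2 units. The largest difference was that of 254931_at, at 5.19 and 5.19 after triggering and 3.89 and 3.85 after both treatments.

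Primed wild-type seedlings that were heated again provide the other arrays not used for the choice. All 57 members had a lower mean in primed and triggered than in primed seedlings, with a median difference of −2.19 log2 units. By limma 52 were lower and 0 higher, against 12.6% of all probe sets lower and 8.51% higher. In 54 members every primed and triggered array lay below both primed arrays (23.2% of all probe sets), and 40 met the 4-fold condition as well (0.514%). Primed arrays all have the low bioB signal and primed and triggered arrays do not, so the comparison also spans that difference. With the signal as a term in the fit, estimated from the naive arrays alone, 31 members were lower with a median of −2.17. The spread in the main fit is shared by all arrays, those of the choice among them. In fits of the compared groups only, 38 members were lower here and 56 in each of the hsfa2 comparisons with naive seedlings.

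The fall was again largest for 264014_at, from 9.39 and 10.02 to 5.38, 4.94 and 5.89 (−4.30, SE 0.41). AT1G28400 changed by −3.06 (SE 0.31), AT2G14460 by −2.98 (SE 0.28) and AT3G28040 by −2.75 (SE 0.41), all 3 past the test. BRH1 (−2.21, SE 0.34), DRT100 (−2.14, SE 0.43) and AT5G64120 (−2.10, SE 0.53) passed as well. With the bioB signal as a term, AT3G28040 (−1.83), BRH1 (−1.95), DRT100 (−1.96) and AT5G64120 (−1.56) no longer passed, while 264014_at, AT1G28400 and AT2G14460 did. DRT100 also lost its call in a fit of the compared groups only. In DRT100 the arrays of primed and triggered seedlings were uneven, at 7.11, 8.62 and 6.78, against 9.55 and 9.74 in primed ones.

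The 5 members not called in this comparison were AT5G64110 (−0.66, SE 0.32, limma adjusted p = 0.161), AT3G19030 (−1.14, SE 0.43), AT1G70420 (−1.30, SE 0.65), 245736_at (11.36 and 9.97 against 9.42, 9.82 and 9.47) and 249477_s_at (−1.28, SE 0.49). AT5G64110, AT1G70420 and 249477_s_at were also among the members with the lowest primed levels relative to naive ones. AT3G19030 passed neither here nor in the hsfa2 comparisons, which share their naive arrays.

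**Figure D3:**
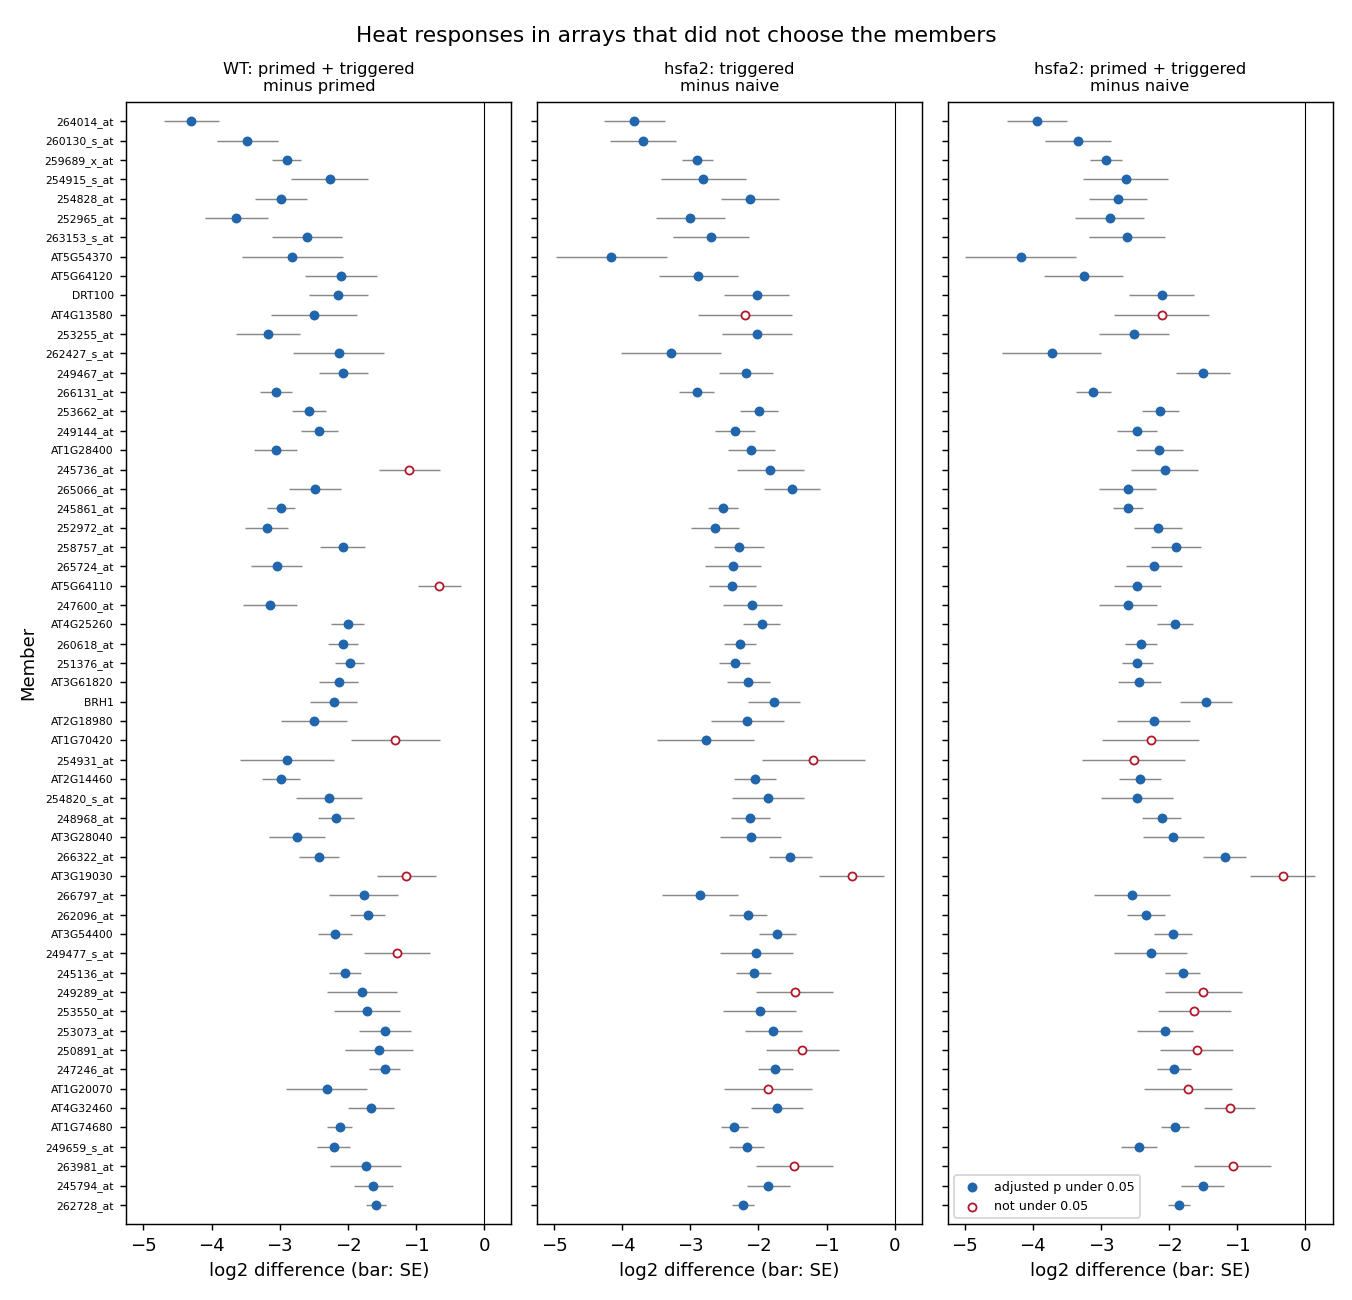
Log2 difference with its SE (horizontal axis) for each of the 57 members (vertical axis, largest wild-type fall at the top) in primed and triggered against primed wild type, and in triggered and in primed and triggered against naive hsfa2. Every point lies below 0, and filled points (52, 50 and 47) passed the limma test.

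Recovery was described from the primed seedlings, which had been heated 3 d earlier. No array was taken just after the heat on day 4, so a fall at that time was not measured. The level of triggered 7-d-old seedlings stands in for it. The naive arrays also chose the members, so the comparison of primed with naive seedlings is given as a description. By limma 0 of 57 members differed at an adjusted p under 0.05, as did 0.00440% of all probe sets (2061 of all probe sets and 4 members had an unadjusted p under 0.05). The median difference was 0.05 log2 units, and 44 members were within 0.5. Separation of primed from triggered arrays is favoured, since the triggered arrays chose the members for being low. In 56 members both primed arrays lay above the highest triggered array, for which the share of all probe sets was not computed. The exception, AT1G70420, read 6.49 and 4.32 in primed arrays, with triggered arrays from 3.96 to 4.35 and naive ones from 4.88 to 7.27.

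As a share of the distance between the triggered and the naive mean, the primed mean stood at a median of 102%, where 100% is the naive level, with a range from 49.5% to 165%. In 45 members it was at 90% or more and in 4 under 75%. The primed mean lay within the range of the naive arrays for 42 members, above it for 8 and below it for 7. Shares of all probe sets were not computed for these counts. Without primed replicate 2 the median was 112%. The triggered and naive means of both terms had been used for the choice, so no test was made.

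The lowest share was that of AT5G64110, at 49.5%. Its primed arrays read 5.84 and 5.42, below every naive array (6.41 to 7.54) and above every triggered one (4.23 to 4.85), a difference from naive of −1.20 (SE 0.32, limma adjusted p = 0.379). The neighbouring peroxidase gene AT5G64120 stood at 113%, with 8.02 and 9.01 in primed arrays. Without naive replicate 3, AT5G64110 was called lower (−1.41, limma adjusted p = 0.0471) and 254931_at higher (2.39), when 2.38% of all probe sets were called. The array left out is the naive one with low bioB signal, and in it AT5G64110 was lowest of the naive arrays.

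AT1G70420 (53.7%), 249477_s_at (67.1%) and AT3G19030 (68.0%) followed, then AT4G32460 (77.7%). In AT3G19030 this rested on 1 array, since the primed arrays read 8.44 and 10.17 and the naive ones 9.97 to 10.03. AT4G32460 read 8.78 and 9.34 in primed arrays, against 9.11 to 9.92 in naive ones. At the other end were 254931_at (165%), 247600_at (136%), AT2G14460 (131%), 248968_at (127%), with AT1G28400 (123%) next among the listed genes. AT2G14460 read 7.64 and 6.97 in primed arrays, both above its naive arrays (6.28 to 6.84). AT3G61820 (120%), AT3G54400 (119%) and AT3G28040 (110%) were also at or above the naive mean. In 254931_at the primed arrays (6.89 and 8.57) overlapped a naive group that ran from 5.19 to 8.07.

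Both primed arrays were below all naive arrays in 2 members (10.3% of all probe sets) and above them in 3 (9.54%), shares that are at or under those of the array as a whole. The primed arrays often differed from each other as the naive ones did. AT4G13580 read 9.06 and 6.11, AT2G18980 9.12 and 7.26 and AT5G54370 7.74 and 5.73, replicate 1 first. Naive replicate 3 was likewise the lowest naive array in these 3 genes, at 7.01, 7.38 and 5.14.

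**Figure D4:**
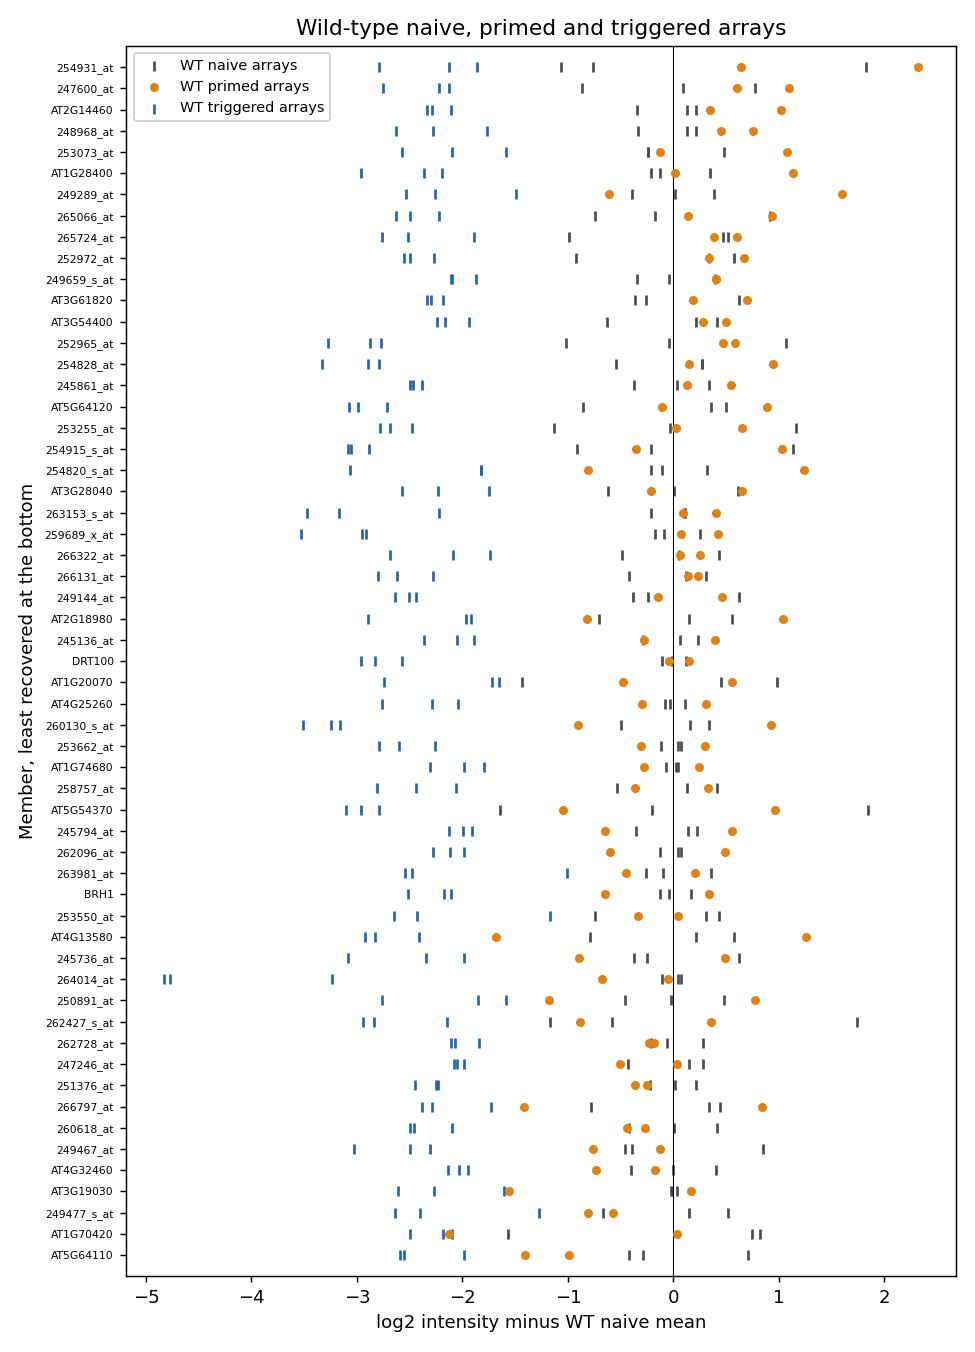
Wild-type naive, triggered (ticks) and primed (points) arrays of each member as the log2 intensity minus the naive mean (horizontal axis), with members in order of recovery (vertical axis, 49.5% at the bottom and 165% at the top). Primed points lie around 0 among the naive ticks for most members, and AT5G64110, AT1G70420 and AT3G19030 near the bottom have points that reach towards the triggered ticks.

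After a second heat treatment 44 of 57 members in the wild type lay within 0.5 log2 units of their level after a single one. At least 1 unit higher were 4 members, and 0 were at least 1 unit lower. The triggered arrays also chose the members for being low, so a difference upwards is favoured and the values are a description. Primed and triggered seedlings were at a median of 0.15 log2 units above triggered ones, with 38 members above and 19 below, and 0 members passed by limma, against 0.308% of all probe sets in either direction (1098 of all probe sets and 6 members had an unadjusted p under 0.05). The replicate numbers pair these 2 groups. In a fit of the 6 arrays with the replicate number as a block, 3 members were higher, 254915_s_at (1.08), 245736_at (1.17) and 253073_at (pair differences of 1.46, 0.77 and 1.06), when 0.624% of all probe sets were called.

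No member had all primed and triggered arrays below all triggered ones (3.33% of all probe sets), and 9 had them all above (4.53%). In 22 members primed and triggered arrays were higher in every replicate pair (15.2% of all probe sets), and in 3 they were lower in every pair (15.4%). AT5G64120 had the largest mean difference (1.22, SE 0.47), with pair differences of 0.84, 1.97 and 0.84. In 245736_at the pairs differed by 1.64, 0.94 and 0.95. DRT100 was higher in each pair too, but by amounts from 0.02 to 1.60. AT3G28040 was lower in each pair, by 0.07, 0.76 and 0.21.

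The level in hsfa2 was then set beside that of the wild type in each condition. After both treatments, the condition whose arrays did not choose the members, the median difference between hsfa2 and the wild type was −0.03 log2 units, and 41 members were within 0.5. By limma 0 of 57 members differed, against 1.37% of all probe sets (3322 of all probe sets and 9 members had an unadjusted p under 0.05). The hsfa2 arrays were all below the wild-type arrays in 12 members (16.9% of all probe sets) and all above in 8 (16.7%). The smallest adjusted p was that of AT1G74680, at 4.89, 5.32 and 5.15 in the wild type and 5.57 and 5.88 in hsfa2 (0.60, SE 0.19, limma adjusted p = 0.138). The largest differences were −1.20 (SE 0.45) in 245736_at, −0.97 in 254828_at and 254915_s_at (SE 0.57 in the latter), and, upwards, 0.88 in 252972_at and 0.83 (SE 0.34) in AT4G32460.

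Without primed and triggered wild-type replicate 2, AT4G32460 was called higher in hsfa2 (1.27, limma adjusted p = 0.0223), when 2.19% of all probe sets were called. That array read 8.27, against 7.12 and 6.80 in the other 2 wild-type and 8.31 and 8.15 in the hsfa2 arrays. BRH1 (0.78, SE 0.34) and AT3G28040 (0.78, SE 0.41) were higher and AT3G19030 (−0.77, SE 0.43) and AT5G64110 (−0.60, SE 0.32) lower in the mean, none past the test.

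The naive wild-type arrays chose the members for being high, so a lower mutant mean is favoured before heat and the values are a description. Naive hsfa2 and wild-type seedlings had a median difference of −0.03 and 0 members differed by limma, as did 0.00% of all probe sets (1317 of all probe sets and 6 members had an unadjusted p under 0.05). The hsfa2 mean was within the range of the wild-type naive arrays for 37 members, below it for 12 and above it for 8, counts without a computed share of all probe sets. Both hsfa2 arrays were below all wild-type arrays in 7 members (10.1% of all probe sets) and above them in 7 (12.4%). AT3G19030 had the largest difference, at 7.28 and 8.18 in hsfa2 against 9.97, 9.99 and 10.03 in the wild type (−2.26, SE 0.43, limma adjusted p = 0.217). It was thus about as low in unheated hsfa2 as in heated wild-type seedlings (7.39, 7.72 and 8.39). AT5G64120 was higher in the mutant, at 9.36 and 10.73 against 7.26 to 8.62 (1.93, SE 0.53, limma adjusted p = 0.481). The unlisted 262427_s_at read 9.56 and 9.51 in hsfa2, but 9.57 in naive wild-type replicate 2 and 7.25 and 6.66 in the other 2.

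After triggering alone the median difference was 0.15, with 37 members higher and 20 lower in hsfa2. By limma 0 members differed, against 0.00879% of all probe sets (1576 of all probe sets and 2 members had an unadjusted p under 0.05). Both hsfa2 arrays were below all wild-type arrays in 2 members (10.5% of all probe sets) and above them in 13 (14.7%). As the wild-type arrays were chosen for being low here, a higher mutant mean is favoured. AT5G64120 was the largest difference again, at 6.46 and 7.87 against 5.05 to 5.41 (1.97, SE 0.53, limma adjusted p = 0.475), and after both treatments it was 0.38 (SE 0.53). The fall itself was at least as large in hsfa2 as in the wild type for 15 members. Since the wild-type fall chose the members, a smaller fall in hsfa2 is favoured, and the difference in response is a description. It was called by limma for 0 members and 0.00440% of all probe sets (269 of all probe sets and 1 member had an unadjusted p under 0.05). AT3G19030 had the largest such difference, 1.53 log2 units.

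**Figure D5:**
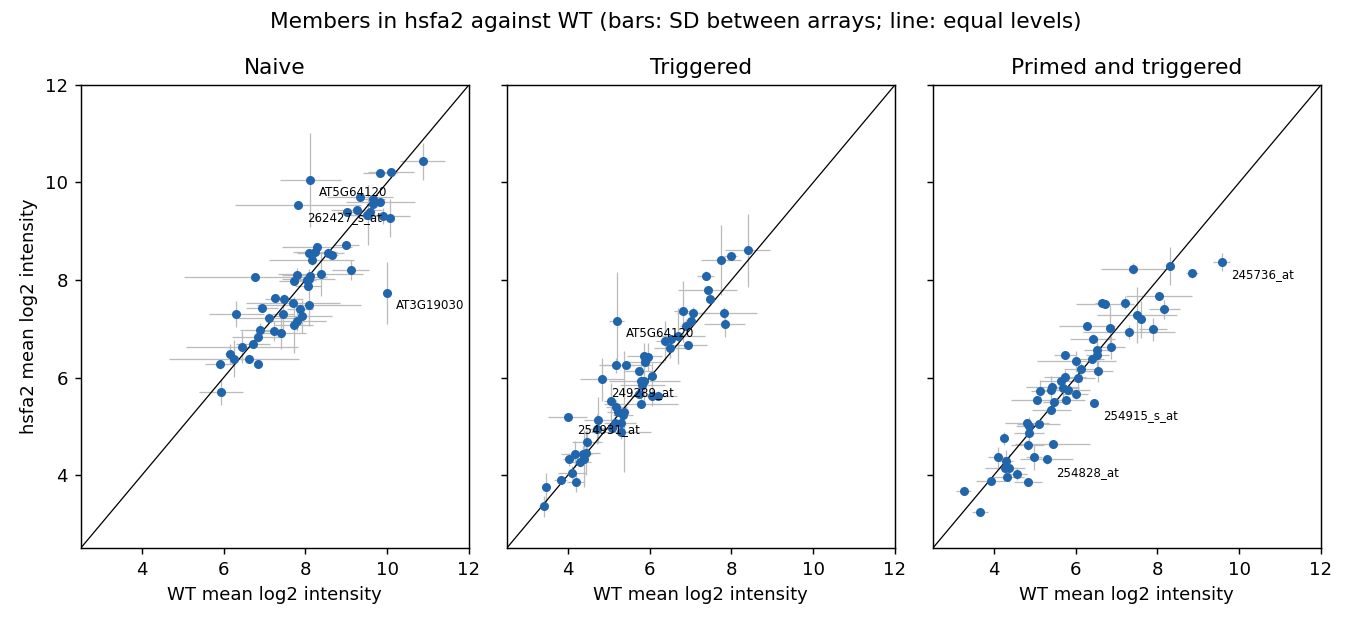
Mean log2 intensity of each member in hsfa2 (vertical axis) against the wild type (horizontal axis) in naive, triggered, and primed and triggered seedlings, with the SD between arrays as bars and the line of equal levels. Most members lie near the line in all 3 panels, with AT3G19030 far below it and AT5G64120 far above it in naive seedlings. The 3 largest differences in each panel carry names.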

How the data were processed

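RNA of 17 arrays in 7 groups was analysed. The authors deposited 1 intensity value per probe set and array, on a linear scale (3.94 to 19601.5, 0 zeros) and made with RMA, per the submitters' processing notes. The RMA version was not known here. RMA scales arrays to one another, so a change of total RNA would not be seen. Values were put on the log2 scale without a pseudocount or further normalization, and 64 control probe sets were removed. All arrays entered 1 fit with limma 3.58.1 (R 4.3.3) of group means over 22746 probe sets (10 residual degrees of freedom, prior 2.92), with Benjamini-Hochberg adjustment over all probe sets and a call at an adjusted p under 0.05. SE is that of the fit. The labels call arrays biological replicates, and the number of arrays limits the precision. In simulated data the fit called 94% of probe sets lowered by 2 log2 units and 53% of those lowered by 1 in hsfa2 after triggering, and 95% and 65% in the wild type after a second heat treatment. The simulation used independent normal noise with the fitted spread, and 100 probe sets changed at each size. It held no bioB difference and no replicate pairing, so its shares describe that setting only.

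Probe sets were named through the platform annotation (13513 with 1 gene, 503 with several, 8730 not listed) and a RefSeq table of TAIR10.1, which matched 13436. The members, gene lists and tests were chosen with earlier results of these data known. By rule the text names members with 1 listed gene that have a symbol of their own, are among the 10 largest wild-type falls, the 5 most and 5 least recovered or the 5 largest genotype differences after both treatments, the 2 largest falls of unlisted members, and the 3 probe sets on either side of the threshold. The other listed genes and unlisted members were named after their values had been seen. Keyword groups used names in that table. Promoter motifs and sequences were not analysed here. Alternatives were median centring, a minimum mean of 5, a robust prior with a trend, fits of the compared groups only, terms for replicate number and bioB signal (low under 6), leaving out arrays, and thresholds of −1.5 and −2.5. Replicate numbers paired the triggered with the primed and triggered wild-type arrays, whose same-numbered arrays deviated together (r from 0.563 to 0.656 over probe sets, all over 0.1), and no other groups of 3.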

Additional observations from a re-analysis of the deposited data

How the results depend on the processing

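The falls of the 18 listed genes and of 5 unlisted members, recomputed singly in the 3 comparisons of arrays not used for the choice, kept their direction in every alternative run, with 668 values on the same side of the test, 70 that lost and 17 that gained a call. The exception was AT3G19030, at 0.12 (range without 1 array −0.79 to 0.12) between primed and triggered and naive hsfa2 seedlings without hsfa2 naive replicate 2. The number of members was 242 at a threshold of −1.5 and 18 at −2.5, 40 with arrays centred on their medians (all 40 among the 57), and 50 to 78 without 1 array, of which 44 to 54 were among the 57. Centring moved the members' median to −2.16 for the wild-type fall, −2.01 for the second heat treatment and −1.98 and −2.08 for hsfa2 after triggering and after both treatments. With the bioB signal as a term 31 members were lower after the second heat treatment, and in the fit of the compared groups only 38. Leaving out 1 array gave 42 to 52 lower members there (median −2.38 to −2.16), 29 to 37 for triggered hsfa2 and 29 to 34 for hsfa2 after both treatments. It gave 0 to 2 calls for primed against naive seedlings (median 0.017 to 0.29), 0 to 1 for hsfa2 against the wild type after both treatments, a wild-type fall of −2.44 to −2.24 and a recovery of 101% to 112%. The replicate block with all arrays gave 53, 49 and 49 lower members in the 3 comparisons, against 52, 50 and 47. In the fit of only the triggered and the primed and triggered wild-type arrays with the replicate block 3 members were called, and the block changed no other count by over 1.5 times. This fit and the one without the 3 arrays of low bioB signal, which gave 54 and 52 lower members in hsfa2, were added after the data had been seen. The causes were not tested. Arrays near background, and 2 arrays in a group, limit what falls and differences could be seen.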
